A study of Homo sapiens with 6 samples.

Results

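The miR-374, miR-421 and miR-545 cluster is a group of miRNA genes within the interval of the lncRNA gene FTX on the X chromosome. Its 9 mature miRNAs, chosen by name alone with no intensity in the rule, were all found among the 2565 miRNA probes of the array. They are hsa-miR-374a-5p, hsa-miR-374a-3p, hsa-miR-374b-5p, hsa-miR-374b-3p, hsa-miR-374c-5p, hsa-miR-374c-3p, hsa-miR-421, hsa-miR-545-5p and hsa-miR-545-3p. Panc-1, an established epithelial line from a human pancreatic ductal adenocarcinoma, was profiled on 6 arrays with 1 spot per miRNA. Of these, 3 arrays held RNA of control cells (TGF-β at 0 ng/mL) and 3 held RNA of cells kept for 72 h with 10 ng/mL of TGF-β, the cytokine used in the study to induce the epithelial–mesenchymal transition. The comparison asks which miRNAs differ after this treatment. The labels do not say whether the 3 samples of a group came from separate cultures, so the tests measure the spread between these samples. By the chip codes of the deposited files, the control arrays lay on the same chip and the TGF-β arrays on another, so chip and treatment cannot be told apart.

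A miRNA gene is transcribed as part of a longer RNA, which is cut to a hairpin and then to a short duplex. Each arm of the duplex, named 5p or 3p, can be loaded into an Argonaute protein as a guide, while the other arm is often degraded. The guide pairs with target RNAs mainly through its seed, the bases from position 2 to 8. FTX is a long non-coding RNA of the X-inactivation centre and is known for its part in the control of X inactivation. miR-374a has been described as an enhancer of Wnt signalling and miR-421 as a repressor of the kinase ATM.

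In the RefSeq annotation of GRCh38.p14, FTX spans chrX:74028136-74293574 on the minus strand. Its miRNA genes lie in 2 groups that are 68485 bases apart. The first holds MIR421 (chrX:74218377-74218461) and MIR374B (chrX:74218547-74218618), with 85 bases between them. MIR374C (chrX:74218549-74218618) lies on the plus strand over the same bases as MIR374B. The second group holds MIR545 (chrX:74287104-74287209) and MIR374A (chrX:74287286-74287357), with 76 bases between them. All but MIR374C are on the strand of FTX. No other miRNA gene of the annotation was found within 100 kb of these 5 genes. Mature sequences from RefSeq were matched for 8 of the 9 members, all but hsa-miR-374a-5p. The 4 detected members with a sequence and the 4 members that were not detected are shown in that order, 5′ to 3′, with the seed in capitals.

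hsa-miR-374b-5p: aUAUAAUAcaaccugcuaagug
hsa-miR-374b-3p: cUUAGCAGguuguauuaucauu
hsa-miR-374c-5p: aUAAUACAaccugcuaagugcu
hsa-miR-421: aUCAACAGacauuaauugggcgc
hsa-miR-374a-3p: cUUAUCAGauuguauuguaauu
hsa-miR-374c-3p: cACUUAGCagguuguauuauau
hsa-miR-545-5p: uCAGUAAAuguuuauuagauga
hsa-miR-545-3p: uCAGCAAAcauuuauugugugc

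The 8 sequences have 8 different seeds. MIR374B and MIR374C, read from opposite strands of the same bases, nevertheless have products that are alike over most of their length. hsa-miR-374b-5p and hsa-miR-374c-5p, each of 22 bases, share an unbroken run of 20 bases that starts at base 3 of the first and at base 1 of the second. hsa-miR-374b-3p and hsa-miR-374c-3p share a run of 18 bases. The next longest run between any pair of these members is 7 bases. The shared runs are shown in capitals, since they bear on what a hybridization probe can tell apart.

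hsa-miR-374b-5p: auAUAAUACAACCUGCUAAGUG
hsa-miR-374c-5p: AUAAUACAACCUGCUAAGUGcu
hsa-miR-374b-3p: CUUAGCAGGUUGUAUUAUcauu
hsa-miR-374c-3p: caCUUAGCAGGUUGUAUUAUau

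The arms of miR-374a and miR-374c differed in detection, both arms of miR-374b were detected, and those of miR-545 were near the background. A miRNA counted as detected on an array when its spot signal exceeded the mean of the blank spots by 2 SDs, which set limits of 19.5 to 22.8 intensity units. The 5p arms of miR-374a, miR-374b and miR-374c, together with hsa-miR-421 and hsa-miR-374b-3p, were detected on all 6 arrays. The other 4 members, hsa-miR-374a-3p, hsa-miR-374c-3p and both arms of miR-545, were detected on 0 to 2 arrays. The signals of hsa-miR-374a-5p were 199 to 334 blank SDs above the blank mean, those of hsa-miR-374b-5p 331 to 627, those of hsa-miR-374c-5p 542 to 891 and those of hsa-miR-421 53.4 to 75.6. Each probe binds with its own strength, so these figures say how far each probe stood above the background and give no order of abundance.

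hsa-miR-374b-3p was nearest to the limit among the detected members. Its signals were 23.0, 24.5 and 29.0 units without TGF-β and 24.2, 24.9 and 25.9 units with it, that is, 7.29 to 11.6 blank SDs above the blank mean. hsa-miR-374c-3p was detected on 0 arrays. Its signals were 19.3, 19.0 and 22.8 units without TGF-β and 19.4, 18.9 and 21.9 units with it. They ran from -0.184 to 1.93 blank SDs relative to the blank mean. These probes differed in detection, and their target RNAs share 18 bases. hsa-miR-374a-3p, the opposite arm of hsa-miR-374a-5p, was also detected on 0 arrays and stayed within 0.960 SDs of the blank mean.

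Both arms of miR-545, whose gene lies next to MIR374A on the same strand, were at the background. hsa-miR-545-5p passed the limit of 2 SDs on 1 array, control replicate 1, where it was 2.13 blank SDs above the blank mean. hsa-miR-545-3p passed it on control replicate 3 (2.78 SDs above the mean) and on TGF-β replicate 3 (3.33 SDs). With a limit of 3 SDs only the last of these 3 values remained, while the 5 detected members kept their detection on all 6 arrays. For the 4 undetected members the arrays give an upper bound only, and no fold change is given.

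**Figure D1:**
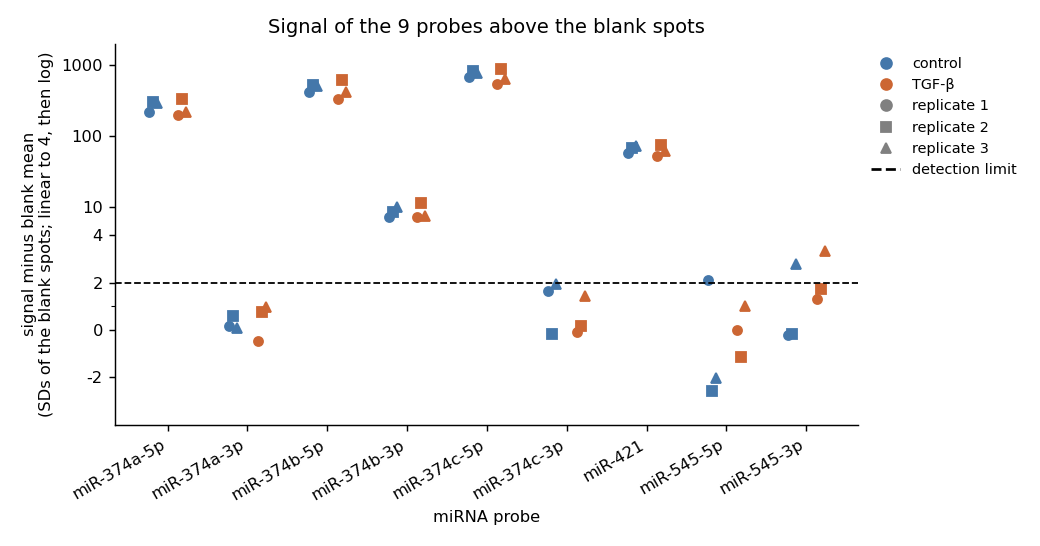
Spot signal of each of the 9 probes minus the mean of the blank spots, in SDs of the blank spots of the same array (vertical axis, linear up to 4 and logarithmic above), for 3 control and 3 TGF-β arrays, with marker shapes for the replicate number and a dashed line at the limit of 2 SDs. The points of 5 probes lie above the line on all 6 arrays, and those of hsa-miR-374a-3p and hsa-miR-374c-3p lie below it on all 6.

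The comparison of TGF-β with control was made on normalized intensities: the blank mean was subtracted, arrays were quantile normalized over the miRNA probes, and values were put on the log2 scale. With this background and normalization hsa-miR-374c-5p fell in TGF-β-treated cells, to 0.780 of the control level, and passed the test. With the same background it was lower but did not pass under median scaling (limma, adjusted p = 0.200) or no normalization between arrays (0.769). It also did not pass in limma without an intensity trend (0.212) or in a t-test (adjusted p = 0.152). With the local background of each spot it was not lower. In bulk RNA, fewer cells with a miRNA and less of it per cell cannot be told apart. The other 4 detected members had log2 fold changes between -0.34 and -0.13 and did not pass the test. The normalized intensities of all but hsa-miR-374b-3p were lower on every TGF-β array than on every control array. Because the locus was taken up with earlier results of these data known, the p-values describe these arrays and are no independent support.

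hsa-miR-374c-5p had normalized log2 intensities of 9.02, 9.13 and 8.99 without TGF-β and 8.58, 8.70 and 8.78 with it. Every TGF-β array was below every control array, with a gap wider than the spread within either group. The log2 fold change of -0.36 had a standard error of 0.072 (limma over the 1457 detected miRNAs, adjusted p = 0.0164). The exact permutation test, 2-sided, gave p = 0.1, the smallest that 3 arrays against 3 allow.

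hsa-miR-374b-5p, whose RNA shares 20 of its 22 bases with hsa-miR-374c-5p, had 8.33, 8.43 and 8.43 without TGF-β and 7.89, 8.22 and 8.07 with it on the same log2 scale. The groups did not overlap, and the TGF-β arrays were spread more widely than the control arrays. The difference of TGF-β from control was -0.34 on the log2 scale with a standard error of 0.087 (limma, adjusted p = 0.0640), a ratio of 0.791. The files do not give the probe sequences, and how much of either signal comes from the other miRNA was not tested, so these probes cannot be taken as separate observations.

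hsa-miR-374a-5p, the detected arm of the other FTX group, had 7.32, 7.63 and 7.57 without TGF-β and 7.18, 7.28 and 7.18 with it. Control replicate 1 was closer to the TGF-β arrays than to the other control arrays, but the groups did not overlap. The difference of TGF-β from control was -0.29 on the log2 scale with a standard error of 0.092 (limma, adjusted p = 0.152), a ratio of 0.819.

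hsa-miR-421, which lies beside MIR374B, had 5.36, 5.53 and 5.58 without TGF-β and 5.29, 5.20 and 5.33 with it. Here too control replicate 1 was the lowest control array, close to the highest TGF-β array, and the groups did not overlap. The difference of TGF-β from control was -0.22 on the log2 scale with a standard error of 0.10 (limma, adjusted p = 0.371), a ratio of 0.859.

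hsa-miR-374b-3p, the opposite arm of hsa-miR-374b-5p, had 2.41, 2.51 and 2.70 without TGF-β and 2.34, 2.56 and 2.33 with it, and the groups overlapped. The log2 fold change was -0.13 with a standard error of 0.17 (adjusted p = 0.829 from limma). It was -0.048 without control replicate 3, -0.19 without control replicate 1 and -0.21 without TGF-β replicate 2, and -0.029 with no background correction.

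**Figure D2:**
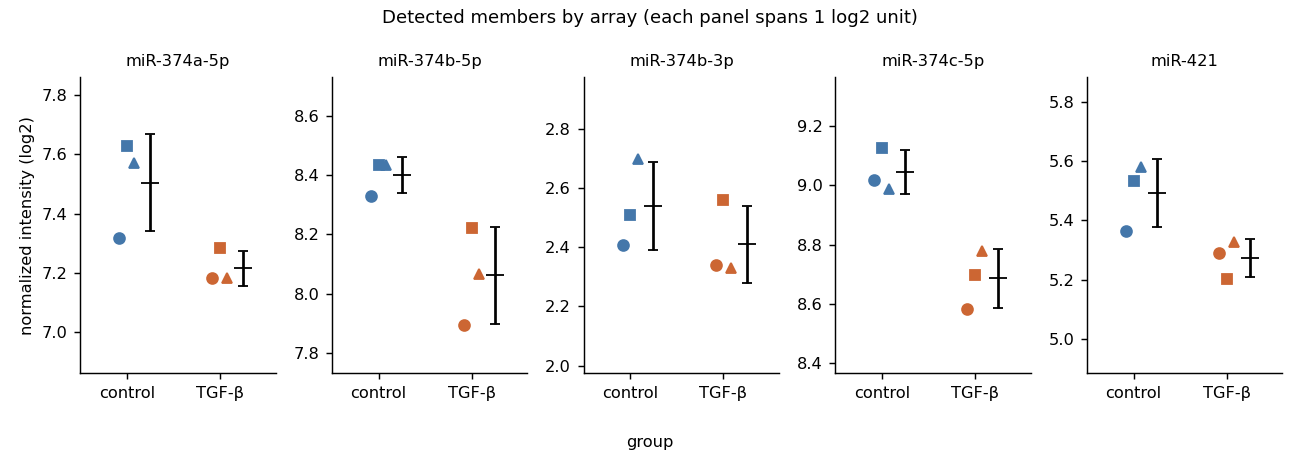
Normalized log2 intensity of the 5 detected members on each of 3 control and 3 TGF-β arrays (circle, square and triangle for replicates 1, 2 and 3), with the mean and SD of each group as a bar to the right of the points. Each panel spans 1 log2 unit, and in 4 panels the TGF-β points all lie below the control points, while they overlap for hsa-miR-374b-3p.

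Of the 5 members tested, limma called 1 at an adjusted p under 0.05, compared with 58 of all 1457 detected miRNAs (3.98%), 20 of them lower and 38 higher after TGF-β. At an unadjusted p under 0.05 there were 3 of the 5 members and 200 of all. Groups that did not overlap, with TGF-β lower, were found for 4 of the 5 members and for 10.1% of all detected miRNAs. The median log2 fold change of the 5 members was -0.29, beside -0.013 over all detected miRNAs, of which 52.5% were below 0. The 4 members are not independent in this count. hsa-miR-374b-5p and hsa-miR-374c-5p share most of their sequence, hsa-miR-374a-5p is known as a close relative of hsa-miR-374b-5p and its sequence was not compared here, and 3 of the 4 lie in the same stretch of FTX or opposite to it.

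The call of hsa-miR-374c-5p was lost without any of 3 of the 6 arrays. Without control replicate 2 its adjusted p was 0.128, without TGF-β replicate 1 it was 0.0702 and without TGF-β replicate 2 it was 0.0908 (limma), with log2 fold changes of -0.31, -0.32 and -0.36. For hsa-miR-374a-5p the reverse held: without control replicate 1, its lowest control array, the log2 fold change was -0.40 with an adjusted p of 0.0230.

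The separation of the groups also depended on the scaling between arrays. In the processed values that the authors deposited, which are blank-subtracted and scaled to a median of 25 per array, hsa-miR-374c-5p had 1825, 2231 and 2030 without TGF-β and 1479, 2249 and 1725 with it. TGF-β replicate 2 was the highest of the 6 arrays there for each of the 5 detected members, and none of them had separate groups. The scaling factor of that array was 4.78, beside 3.37 to 4.31 for the others, and the median of all detected miRNAs was shifted by 0.11 on the log2 scale in the deposited values. The log2 fold changes of hsa-miR-374a-5p, hsa-miR-374b-5p, hsa-miR-374c-5p, hsa-miR-421 and hsa-miR-374b-3p in the deposited values were -0.14, -0.14, -0.18, -0.076 and -0.015, and limma called 0 of them (0 at an unadjusted p under 0.05). Relative to the shift of all miRNAs they were -0.25, -0.25, -0.29, -0.19 and -0.12, which were not tested. Without TGF-β replicate 2, an alternative chosen after seeing the data, the deposited values gave -0.34, -0.36, -0.34, -0.18 and -0.19 in the same order. limma then called 0 members and 19 of 1436 miRNAs, with 2 members and 139 of all at an unadjusted p under 0.05. With median scaling over the miRNAs detected on all arrays, 1 member had separate groups, 0 were called by limma and 1 had an unadjusted p under 0.05. Of all 1457 tested miRNAs, limma called 49 with that scaling, and 178 had an unadjusted p under 0.05. How many of all miRNAs had separate groups in the deposited values or with median scaling was not counted.

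The direction itself turned when the local background of each spot was used in place of the blank spots. On control replicate 1 the local background of hsa-miR-374c-5p was 470 units beside a signal of 461, and on TGF-β replicate 2 it was 135 beside 489. Over the 6 arrays its ratio to the signal ran from 0.275 to 1.02. The local background exceeded the signal on 1 array each for hsa-miR-374b-5p, hsa-miR-374c-5p and hsa-miR-421, which was control replicate 1 in each case. Corrected in this way, hsa-miR-374c-5p had a log2 fold change of 0.42 (standard error 0.81), hsa-miR-374b-5p of 0.18 (0.56) and hsa-miR-421 of 0.12 (0.090). That of hsa-miR-374a-5p was -0.49 (0.55) and that of hsa-miR-374b-3p was -0.0010. No miRNA of the array was called in that fit by limma (35 at an unadjusted p under 0.05). Local background and signal rose together over all miRNAs, with a Spearman correlation of 0.795 to 0.874 per array. Its median was 12.1 to 17.1 units at blank spots and 236 to 534 units at miRNA spots above 200 units. The blank spots were taken as the background with it known that no miRNA is called with the local background, so the call of hsa-miR-374c-5p is conditional on this choice.

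**Figure D3:**
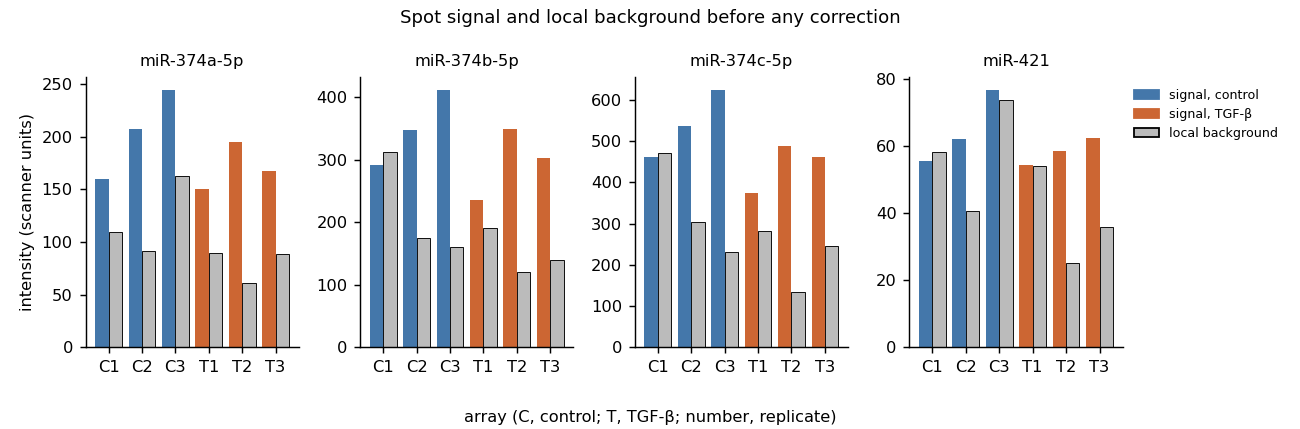
Spot signal (coloured bars) and local background (grey bars) in scanner units before any correction, for 4 members on 3 control (C) and 3 TGF-β (T) arrays. The grey bar reaches or passes the signal on control replicate 1 for hsa-miR-374b-5p, hsa-miR-374c-5p and hsa-miR-421, and is low against the signal on TGF-β replicate 2.

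**Figure D4:**
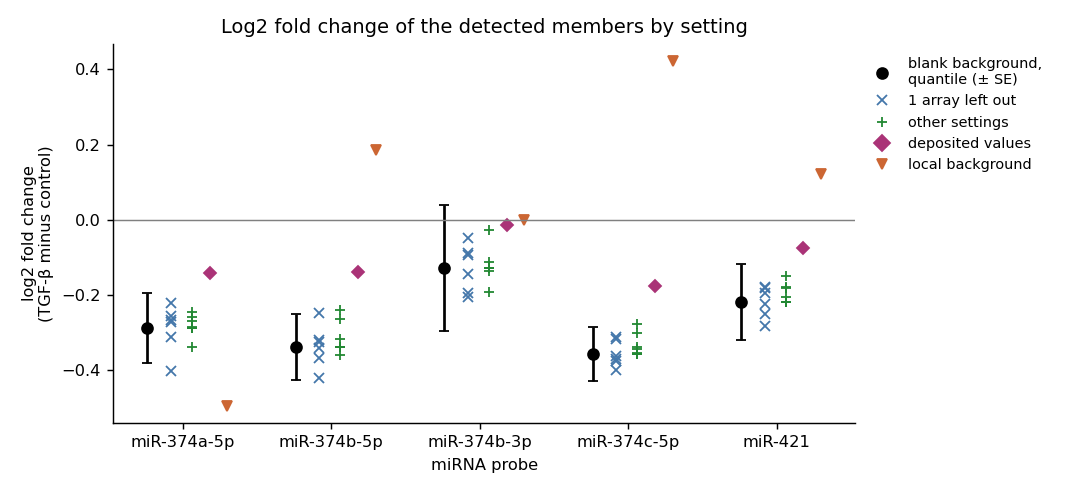
Log2 fold change (TGF-β minus control) of the 5 detected members with the blank background and quantile normalization (black, with its standard error), with 1 array left out (blue), with the deposited values (purple diamond), with other settings (green) and with the local background (orange triangle). The points of the 5 members lie below 0 in all settings drawn except the local background, with which 3 are above 0.

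The array also holds a miRNA that shares a seed with the cluster but not its locus. hsa-miR-655-3p, from MIR655 on chromosome 14, has the seed of hsa-miR-374c-5p and is shown with it in capitals.

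hsa-miR-655-3p: aUAAUACAugguuaaccucuuu

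The longest run it shares with hsa-miR-374c-5p is 8 bases. It was detected on all 6 arrays, with normalized log2 intensities of 3.26, 2.95 and 3.06 without TGF-β and 3.32, 3.40 and 2.89 with it. The groups overlapped, and the difference of TGF-β from control was 0.12 on the log2 scale with a standard error of 0.17 (limma, adjusted p = 0.858). Among the mature miRNAs of the RefSeq table, no other was found with the seed of any of the 8 members that have a sequence. hsa-miR-374a-5p, a known close relative of hsa-miR-374b-5p, was not part of this search.

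Other miRNAs of the X chromosome were set beside the cluster. Of 127 on the array that match a single RefSeq gene, 73 were detected and tested. limma called 0 of these, 4 had an unadjusted p under 0.05, of which 1 was lower, and the methods' t-test called 0 (8 before adjustment). Their median log2 fold change was -0.019 and 39 of the 73 were below 0, beside a median of -0.012 over 1131 autosomal miRNAs, of which 43 were called. Whether the cluster differs from the rest of the chromosome was not tested.

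Among the detected miRNAs outside the cluster, those whose 6 normalized values followed hsa-miR-374c-5p most closely were hsa-miR-425-5p (Pearson r = 0.993), hsa-miR-6723-5p (0.987) and hsa-miR-5000-5p (0.980). The log2 fold change was -0.27 for hsa-miR-425-5p, which passed the test (adjusted p = 0.0164 from limma), and -0.43 for hsa-miR-6723-5p, which did not (adjusted p = 0.109). hsa-miR-5000-5p was detected on 3 control arrays and 2 TGF-β arrays, with normalized log2 intensities of 0.22 to 0.56 on the TGF-β arrays, near the floor at 0, so its fold change is not given and its correlation rests partly on values near the background. For hsa-miR-374a-5p the closest was hsa-miR-191-3p (0.991), for hsa-miR-374b-5p it was hsa-miR-5000-3p (0.972) and for hsa-miR-421 it was hsa-miR-5699-5p (0.974). These are the highest of the correlations with all detected miRNAs, over 6 arrays that fall in 2 groups, and serve as a description only. Within the cluster the 10 pairs of detected members had correlations of 0.418 to 0.899 over the same 6 arrays. The highest was that of hsa-miR-374b-5p with hsa-miR-374c-5p and the lowest that of hsa-miR-374b-3p with hsa-miR-374c-5p. For hsa-miR-374b-5p and hsa-miR-421, whose genes are 85 bases apart, it was 0.705, and for hsa-miR-374a-5p with hsa-miR-374b-5p, from the 2 gene groups, it was 0.878.

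Some markers of the cells were looked at, which cannot settle the identity of the line. hsa-miR-21-5p, hsa-miR-100-5p and hsa-miR-221-3p, abundant in epithelial cancer lines but not only there, were detected on all 6 arrays. Of these hsa-miR-100-5p rose in TGF-β-treated cells (log2 fold change 0.75, adjusted p = 1.03e-05 from limma). Among miRNAs often used as epithelial markers, hsa-miR-141-3p was detected on 0 arrays. hsa-miR-200c-3p was detected on 1 control array and hsa-miR-205-5p on 1 TGF-β array. hsa-miR-200a-3p and hsa-miR-200b-3p were detected on all 6 arrays, with mean log2 intensities of 2.41 and 2.93 without TGF-β and 2.64 and 2.92 with it. Of 7 blood cell miRNAs, 3 were detected on all arrays, namely hsa-miR-142-3p, hsa-miR-486-5p and hsa-miR-150-5p, and the other 4 were detected on 2 to 5 arrays. Their normalized log2 intensities averaged 0.149 to 4.28 per group. Of the 5 that were tested, limma called 0, with adjusted p-values of 0.217 to 0.998. Their part in the results was not tested.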

How the data were processed

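Each sample was hybridized to a 3D-Gene miRNA array in 1 colour. The authors deposited linear scanner values that were not normalized, namely the median intensity of each spot and of the area around it, and a table of processed intensities. Applying blank subtraction (320 blank spots, 5% trimmed at both ends), scaling to a median of 25 over the detected miRNAs and rounding gave those processed values back. The sources used here do not name this method.

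R 4.3.3, limma 3.58.1 and Python 3.11.15 were used. Flagged miRNA spots (3, none of a member) counted as missing. After subtraction of the trimmed blank mean, the 2565 miRNA probes were quantile normalized on the linear scale, floored at 1 and put on the log2 scale. A miRNA was tested if all arrays of either group detected it (1457 miRNAs), with lmFit, eBayes with intensity trend and Benjamini-Hochberg adjustment. The members, lists and settings, the blank background included, were chosen with earlier results of these data known, among them that the local background gave no call. Named miRNAs are the members, those that share a seed or lie within 100 kb, the closest followers over the arrays and the markers. The steps were tested on simulated data with changes larger than those of the members. The simulation had no local background and no difference in scaling between arrays, so it does not bear on the calls of the members. Sequences and positions are from RefSeq (GRCh38.p14), where 1208 of the 1457 tested names matched a single gene. The number of arrays limits the precision.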

Additional observations from a re-analysis of the deposited data

How the results depend on the processing

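The 5 detected members had negative log2 fold changes under all 20 alternatives except the local background (2 of 5 negative), where hsa-miR-374b-5p gave 0.18, hsa-miR-374c-5p 0.42 and hsa-miR-421 0.12; the cause was not tested. Leaving the local background aside, hsa-miR-374c-5p ran from -0.40 to -0.18. It was called under 8 of its 20 alternatives, with adjusted p-values of 0.0161 to 0.986, and the detected count of 5 held at 3 SDs and for detection on all arrays, while 7 members were detected on at least 1 array. limma called 0 members with the local background, median scaling, no normalization, a floor of 4, the deposited values (also without TGF-β replicate 2, an alternative chosen after seeing the data), no filter and no trend, as did the methods' t-test, with 0 to 4 members at an unadjusted p under 0.05. With the replicate block it called 2, hsa-miR-374b-5p joining at an adjusted p of 0.0287, and 61 miRNAs in all. With 1 array left out, 0 to 2 members were called.

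Over all miRNAs, 58 were called, 20 of them lower after TGF-β. The count was 49 with median scaling (12 lower), 35 with no normalization (8 lower) and 31 with the deposited values (4 lower). Without TGF-β replicate 2 the deposited values gave 19 (6 lower). There were 35 with a floor of 4 (10 lower), 20 with no filter (6 lower) and 31 without the trend (9 lower). The methods' t-test called 17 (5 lower), and the local background gave 0. With 1 array left out, 26 to 51 were called. The 4 members with separate groups became 1 with median scaling and 0 with the local background, no normalization or the deposited values. The share of all miRNAs with separate groups and TGF-β lower (10.1%) was counted with the main setting only, so these smaller counts have no share to be set against.

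Same-numbered arrays of the groups deviated from their group means with correlations of 0.129, 0.112 and -0.027 over 1282 miRNAs, so the numbers were not taken as pairs.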
